A study of Mus musculus with 24 samples.

Results

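The genes described here are 31 genes of adipose tissue macrophages, the phagocytes that reside in fat or enter it from the blood. They were taken by gene symbol from the deposited count tables of whole inguinal subcutaneous white adipose tissue, in which 38013 gene identifiers were common to the chow and the high-fat diet (HFD) table. All 31 were matched in both tables, Adgre1 under its older symbol Emr1. They fall into 13 core macrophage genes, 6 genes of resident macrophages, 8 genes of lipid-associated macrophages and 4 scavenger receptor or secreted protein genes.

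Messenger RNA was sequenced in 24 libraries from transgenic C57BL/6J mice. Their transgene encodes AMPK γ1, a regulatory subunit through which the AMP-activated kinase senses adenine nucleotides. WT-Tg libraries came from mice with the wild-type subunit (AMPKg1-WT) and D316A-Tg libraries from mice with its gain-of-function D316A form, so every group carried a transgene. Each genotype was studied on chow at an age of 16 weeks and on HFD with 45% fat at 24 weeks, which gives 4 groups of 6 libraries. The promoter or Cre that drove the transgene is not given in the sources used here, nor is it stated that each library stands for its own mouse, so the p-values reflect spread among libraries, part of which may be technical. Diet, age, sequencing run and count table changed together, and their parts in a difference between the diet cohorts cannot be told apart.

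Adipose tissue macrophages depend on colony stimulating factor 1 and its receptor Csf1r. In lean fat, resident macrophages with mannose receptor and hemoglobin scavenger receptor lie along vessels. In obese fat, macrophages gather around dying adipocytes, take up lipid and degrade it in lysosomes. These lipid-associated macrophages are known for the lipid-sensing receptor Trem2 and for Gpnmb, Cd9 and Lgals3. Gene lists name a typical expression pattern rather than a cell: Lyve1 is also made by lymphatic endothelium, and Lgals3, Cd9 and Ctsk are made by other cells of fat as well. In bulk tissue, fewer cells of a type and less RNA per cell cannot be told apart.

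Promoter sequence from RefSeq (GRCm38.p6), running from 250 bases before to 50 bases after a gene's start, was found for 22 of the 31 genes. The motifs searched on both strands were GAGGAAG, a core bound by the macrophage factor PU.1, and TCANGTGA, an E-box bound by MITF and TFE factors of lysosomal genes. GAGGAAG was present in 9 of the 22 genes and in 13.6% of all 32851 promoter windows, and TCANGTGA in 3 of the 22 (Ctss, Lgals3 and Mmp12) and in 4.18% of all windows. A pair of windows of Mmp12 at different starts held 1 motif each, and in no printed window did matches overlap. A match describes the letters of a window, not binding. A pair of lipid-associated genes (Trem2 and Gpnmb) and a pair of resident genes (Mrc1 and Timd4) are printed 5′ to 3′ as examples of each list. GAGGAAG matches on either strand stand in capitals. Trem2 lies at chr17:48346151-48346450 (plus strand), Gpnmb at chr6:49036268-49036567 (plus), Mrc1 at chr2:14229164-14229463 (plus) and Timd4 at chr11:46810549-46810848 (plus).
Trem2: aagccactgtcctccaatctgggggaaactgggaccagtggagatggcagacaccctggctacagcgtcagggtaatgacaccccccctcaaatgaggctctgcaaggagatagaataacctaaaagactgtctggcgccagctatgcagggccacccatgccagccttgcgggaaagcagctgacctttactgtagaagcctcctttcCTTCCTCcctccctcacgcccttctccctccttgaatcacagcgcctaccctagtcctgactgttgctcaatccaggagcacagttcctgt
Gpnmb: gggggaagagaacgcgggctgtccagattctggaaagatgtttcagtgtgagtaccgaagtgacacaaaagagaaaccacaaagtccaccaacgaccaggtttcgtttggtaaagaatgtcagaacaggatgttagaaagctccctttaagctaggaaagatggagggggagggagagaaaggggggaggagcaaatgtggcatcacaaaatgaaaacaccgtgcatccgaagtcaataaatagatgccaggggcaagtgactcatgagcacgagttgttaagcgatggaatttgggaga
Mrc1: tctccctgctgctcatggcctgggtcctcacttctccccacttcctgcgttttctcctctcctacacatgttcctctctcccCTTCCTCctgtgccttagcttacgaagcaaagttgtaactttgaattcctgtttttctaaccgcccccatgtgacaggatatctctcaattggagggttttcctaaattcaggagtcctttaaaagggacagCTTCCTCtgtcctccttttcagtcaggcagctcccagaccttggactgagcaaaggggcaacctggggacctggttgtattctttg
Timd4: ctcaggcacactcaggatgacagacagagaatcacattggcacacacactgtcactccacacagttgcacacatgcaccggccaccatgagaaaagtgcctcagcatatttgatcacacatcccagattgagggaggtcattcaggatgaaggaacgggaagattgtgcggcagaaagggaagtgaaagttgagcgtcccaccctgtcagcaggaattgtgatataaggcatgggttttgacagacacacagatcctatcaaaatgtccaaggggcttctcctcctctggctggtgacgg
Trem2 held 1 match and Mrc1 2, each on the strand opposite to the gene, whereas neither motif was in the windows of Gpnmb or Timd4. These 4 windows were picked as examples, so they do not show how GAGGAAG divides between the lists. Of the lipid-associated genes with sequence, Trem2, Mmp12 and Ctsk held it, and Gpnmb, Cd9, Lgals3 and Itgax did not. Of the resident genes, Mrc1 held it, and Cd163, Folr2 and Timd4 did not.

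The 24 libraries held 13254536 to 22748132 counts, of which the 31 genes took 0.0498% to 0.529%. Levels are CPM, counts scaled to library size with factors from all 24 libraries, and log2 fold changes come from the edgeR fit of each comparison, whose own scaling makes them differ slightly from the ratio of 2 CPM means. Markers of other cells divided the libraries before any group did. The mean log2 CPM of 9 B lymphocyte genes (Cd79a and others) was at least 4 in 11 libraries, called lymphocyte-rich here: 1, 2, 3 and 4 of WT-Tg and 8 and 11 of D316A-Tg on chow, and 3 of WT-Tg and 7, 8, 9 and 11 of D316A-Tg on HFD. On chow it lay between 5.89 and 7.14 in the lymphocyte-rich libraries and from -1.67 to -0.22 in the others, and on HFD between 4.19 and 6.38 against -1.11 to 1.76. Per the labels' protocols the lymph node had been removed from the fat. The mean log2 CPM of 12 skeletal muscle genes was 3.64 to 9.87 in D316A-Tg and 0.07 to 3.82 in WT-Tg on HFD. Prkag1, which encodes AMPK γ1, had a mean of 379 CPM in WT-Tg and 377 in D316A-Tg on chow (edgeR adjusted p = 0.748) and of 325 and 391 on HFD (adjusted p = 0.445), so its level does not check the genotype labels.

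**Figure D1:**
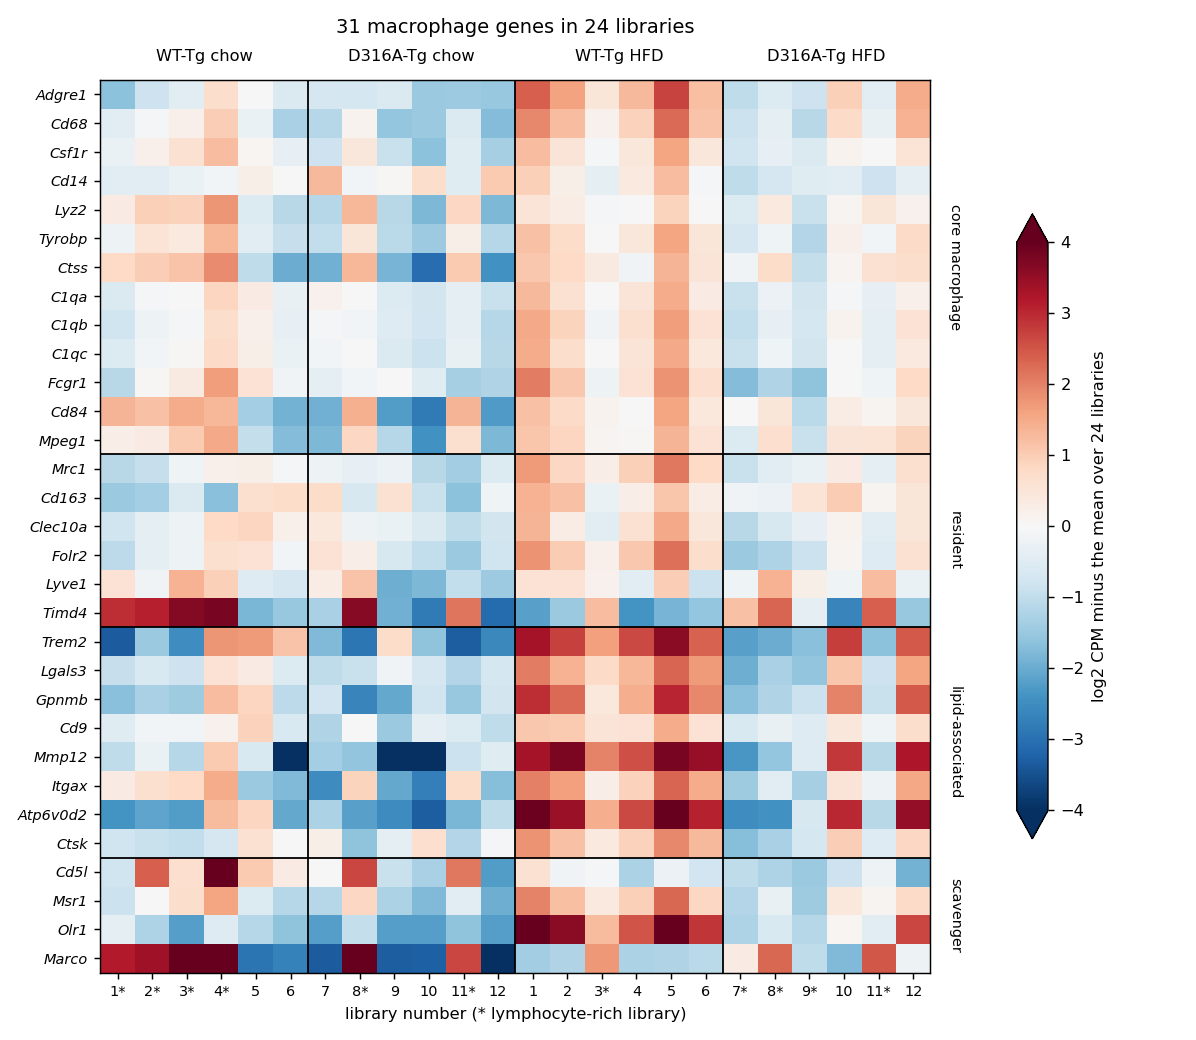
Log2 CPM of each of the 31 macrophage genes minus its mean over 24 libraries, with genes in rows by list and libraries in columns by group (asterisks mark lymphocyte-rich libraries, and colours saturate at 4). The lipid-associated rows are high in WT-Tg on HFD and in D316A-Tg libraries 10 and 12 on HFD, and Timd4 and Marco are high in lymphocyte-rich chow libraries.

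Every core macrophage gene was detected in each of the 4 groups, at levels that ranged widely. Per kilobase of exon and averaged over the 4 groups, Lyz2, the lysozyme of myeloid cells, was highest with 385 CPM per kb, followed by Ctss, the lysosomal cathepsin S, with 105. C1qb, a chain of the complement starter C1q, had 79.9 and Lgals3, the galectin-3 gene, 76.4 CPM per kb. The lowest was Olr1, the receptor for oxidised low-density lipoprotein, with 0.505 CPM per kb. Resident genes lay between 13.6 (Timd4) and 3.98 CPM per kb (Cd163), although Timd4 was highest of them in WT-Tg on chow (30.2) and lowest in WT-Tg on HFD (2.53), and lipid-associated genes between 76.4 (Lgals3) and 3.42 (Trem2). Folr2 shared 63.1% of its exon length with another annotated gene, Csf1r 15.1%, Cd9 10.7% and Mmp12 2.2%. Whether reads were counted by strand is not given in the sources used here, so the counts of these 4 genes are less certain.

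The first comparison asked whether macrophage genes differed between D316A-Tg and WT-Tg fat on chow. None of the 30 genes tested passed an adjusted p below 0.05 in edgeR's quasi-likelihood test (0 called, against 8.54% of the 15249 genes tested, with 5.3% higher and 3.25% lower), 9 had an unadjusted p below 0.05, and DESeq2 called 0. Olr1 was not tested for low counts. Of the 30 fold changes 27 were below 0, with a median log2 fold change of -0.86 against -0.07 over all genes tested. Leaving out 1 library gave medians from -1.25 (D316A-Tg chow library 8) to -0.50 (WT-Tg chow library 4). The median was -0.45 with the B lymphocyte score as a covariate and -0.63 without lymphocyte-rich libraries. In all, 4 WT-Tg but 2 D316A-Tg chow libraries were lymphocyte-rich. In 0 of 31 did the groups not overlap, as they did not in 3.51% of all genes. The median was -0.51 in the 6 resident, -1.09 in the 8 lipid-associated and -0.83 in the 13 core genes.

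Among the core genes on chow, Csf1r, the receptor for colony stimulating factor 1, had a lowest, median and highest value of 65, 89.7 and 192 CPM in WT-Tg and of 25.9, 44.3 and 112 in D316A-Tg. In all, 5 of the D316A-Tg libraries lay below every WT-Tg library, and D316A-Tg library 8 lay within the WT-Tg range. Its log2 fold change was -1.05 (SE 0.41, edgeR adjusted p = 0.114). Without the 6 lymphocyte-rich chow libraries it was -1.06 (SE 0.24, adjusted p = 0.0338), the only gene of the 30 called there, where 15.3% of all genes were. Leaving out D316A-Tg chow library 8, which is lymphocyte-rich, gave 3 calls, namely Cd68 (-1.38, adjusted p = 0.0319), Csf1r (-1.46, adjusted p = 0.0163) and Cd9 (-1.02, adjusted p = 0.0341). Over all genes, the fits that left out 1 chow library called 140 to 3360, against 1303 in the main fit. Cd14, the co-receptor for lipopolysaccharide, was the core gene with a positive value, 10.9 ± 2.08 CPM (SD, n = 6) in WT-Tg and 17.7 ± 8.45 in D316A-Tg (log2 fold change 0.62, SE 0.27, adjusted p = 0.153).

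Trem2 on chow was uneven within WT-Tg, with a lowest, median and highest value of 0.478, 7.48 and 20 CPM, and low in D316A-Tg with 0.486, 1.25 and 9.81 CPM. WT-Tg libraries 4, 5 and 6 had 13 CPM or more and D316A-Tg library 9 had 9.81, while the other libraries were at 2 CPM or less, so the groups overlapped. The log2 fold change was -1.94 with an SE of 1.00 (edgeR adjusted p = 0.211). Timd4, a receptor for phosphatidylserine on apoptotic cells, ran from 2.42 to 126 CPM in WT-Tg and from 0.961 to 111 in D316A-Tg on chow. Its fold change of -1.34 (SE 1.30, adjusted p = 0.488) was smaller than the spread within either group.

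Timd4 and Marco, a scavenger receptor for bacteria and particles, divided the chow libraries by their lymphocyte genes rather than by genotype. In the 6 lymphocyte-rich chow libraries Timd4 was at 39.2 to 126 CPM and in the other 6 at 0.961 to 3.57 CPM. Marco was at 59 to 193 CPM against 0.37 to 1.3 CPM. Within WT-Tg the mean of Marco was 114 times as high in the 4 lymphocyte-rich as in the other 2 libraries, and within D316A-Tg 161 times as high. As background, Timd4 and Marco are also known from macrophages of lymphoid organs. In all, 8 of 31 genes were higher in every lymphocyte-rich than in every other chow library (Lyz2, Tyrobp, Ctss, Cd84, Mpeg1, Timd4, Itgax and Marco), where 21.3% of all genes tested were. Cd14 and Ctsk were lower in every one of them, where 22.2% of all genes were. The first count lay near its background and the second below it. Cd163, the hemoglobin scavenger receptor of resident macrophages, averaged 7.81 CPM in the lymphocyte-rich and 29.3 in the other WT-Tg chow libraries, and 8.74 against 21 in D316A-Tg.

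**Figure D2:**
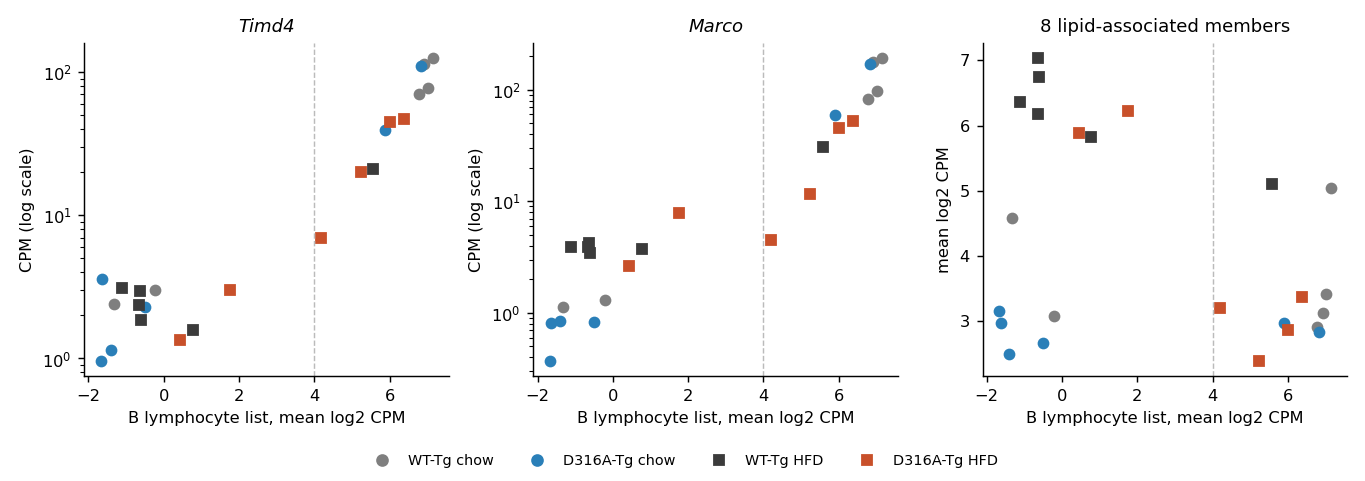
CPM of Timd4 and Marco on a log axis and the mean log2 CPM of the 8 lipid-associated genes against the mean log2 CPM of 9 B lymphocyte genes, with 1 point a library (circles chow, squares HFD, colours groups, dashed line the limit of 4). Timd4 and Marco lie above 39 CPM in the lymphocyte-rich chow libraries, and the lipid-associated score is lowest on HFD in the 4 lymphocyte-rich D316A-Tg libraries.

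On HFD, macrophage genes were lower in D316A-Tg than in WT-Tg fat. Of 31 genes, 8 passed the edgeR test and all 8 fell, where 3.96% of the 14649 genes tested fell, 4.51% rose and 8.47% were called in either direction. The 8 were Cd14, C1qa, C1qb and C1qc of the core list, Mrc1 and Folr2 of the resident list, and the scavenger receptors Msr1 and Olr1. In all, 28 of 31 fold changes were below 0 with a median of -1.14 against 0.01 over all genes tested. No gene of the 31 had groups that did not overlap, where 3.42% of all genes had.

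C1qa, C1qb and C1qc, which encode the chains of the complement protein C1q and are made largely by macrophages, fell together. C1qa had a lowest, median and highest value of 66.8, 99.1 and 188 CPM in WT-Tg and of 35.9, 55.1 and 78.2 in D316A-Tg. WT-Tg library 3 was the single WT-Tg library within the D316A-Tg range. Its log2 fold change was -1.10 (SE 0.27, edgeR adjusted p = 0.0348). C1qb changed by -1.17 (SE 0.33, adjusted p = 0.0485) and C1qc by -1.12 (SE 0.30, adjusted p = 0.0417). The C1qa call was lost in 9 and those of C1qb and C1qc in 10 of the 12 fits that left out 1 library, with adjusted p up to 0.107. Cd14 was at 9.19, 14.9 and 28.5 CPM in WT-Tg and at 5.85, 8.05 and 9.21 CPM in D316A-Tg. WT-Tg library 3 and D316A-Tg library 12 were level, and otherwise the groups did not overlap (log2 fold change -1.14, SE 0.26, adjusted p = 0.0252). Its call was lost in 4 of those 12 fits, with adjusted p up to 0.0524. The macrophage marker Adgre1, which encodes F4/80, was at 84.9 ± 48 CPM in WT-Tg and 29.1 ± 22.9 in D316A-Tg, with an adjusted p of 0.0744. The other 8 core genes that did not pass had log2 fold changes between -1.58 (Fcgr1, a high-affinity immunoglobulin receptor) and -0.28 (Lyz2).

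In the resident list, Mrc1, the mannose receptor gene, had a lowest, median and highest value of 68.7, 108 and 248 CPM in WT-Tg and of 31, 46.8 and 89.8 in D316A-Tg. WT-Tg library 3 and D316A-Tg libraries 10 and 12 shared the range in which the groups met. It fell by 1.32 on the log2 scale (SE 0.33, edgeR adjusted p = 0.0363). Folr2, the folate receptor β gene, fell by 1.71 (SE 0.42, adjusted p = 0.0344), from 39.4 ± 20.5 to 12.1 ± 7.17 CPM. Both calls were lost in 9 of the 12 fits that left out 1 library, with adjusted p up to 0.0789. Clec10a, a galactose-binding lectin, had a log2 fold change of -1.02 (adjusted p = 0.0800), Cd163 of -0.44 (adjusted p = 0.335), Lyve1, the hyaluronan receptor, of 0.26 (adjusted p = 0.671) and Timd4 of 1.91 (adjusted p = 0.181). The list's median was -0.73, with values from -1.71 to 1.91. The summed level of 7 lymphatic endothelium genes, read beside Lyve1, ran from 14.7 to 63.6 CPM in WT-Tg and from 18.4 to 183 CPM in D316A-Tg, and its part in the Lyve1 values was not tested.

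Of the scavenger and secreted protein genes, Msr1, a receptor for modified lipoproteins, had a lowest, median and highest value of 8.31, 13.5 and 31.1 CPM in WT-Tg and of 2.25, 5.94 and 10.7 in D316A-Tg. WT-Tg library 3 and D316A-Tg libraries 10 and 12 again lay where the groups met (log2 fold change -1.51, SE 0.43, edgeR adjusted p = 0.0499). Olr1 was at 1.17, 5.05 and 14.5 CPM in WT-Tg, and in D316A-Tg it was at 0.11 to 0.446 CPM in 5 libraries and at 3.29 CPM in library 12 (log2 fold change -3.05, SE 0.87, adjusted p = 0.0494). The Msr1 and Olr1 calls were lost in 10 of the 12 fits that left out 1 library, with adjusted p up to 0.113. Cd5l (-0.96, adjusted p = 0.133) and Marco (1.32, adjusted p = 0.29) did not pass.

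The lipid-associated list had the lower median, -1.48, and all 8 of its fold changes were between -1.70 and -0.91, yet 0 of 8 passed the edgeR test, 4 had an unadjusted p below 0.05, and DESeq2 called 4 (Lgals3, Cd9, Itgax and Ctsk). Trem2 had a lowest, median and highest value of 18.2, 38.1 and 72.7 CPM in WT-Tg and of 1.21, 1.76 and 40.2 in D316A-Tg. Its D316A-Tg libraries formed separate sets: 7, 8, 9 and 11 were at 1.21 to 1.77 CPM, and 10 and 12 at 40.2 and 32.4. The log2 fold change was -1.70 with an SE of 0.90 (edgeR adjusted p = 0.212). Mmp12, macrophage elastase, was at 37.5, 99.6 and 132 CPM in WT-Tg, at 1.77 to 6.43 CPM in D316A-Tg libraries 7, 8, 9 and 11, and at 66.3 and 88.8 in 10 and 12. Gpnmb, a lysosomal glycoprotein gene, was at 34.1, 109 and 208 CPM in WT-Tg, at 7.83 to 13.8 in the same 4 D316A-Tg libraries, and at 100 and 140 in the other two. Lgals3 ran from 165 to 491 CPM in WT-Tg, from 25 to 54.9 in the 4 and from 213 to 295 in 10 and 12. Cd9, a tetraspanin, came closest to the threshold, at -0.91 (SE 0.26, adjusted p = 0.0502).

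**Figure D3:**
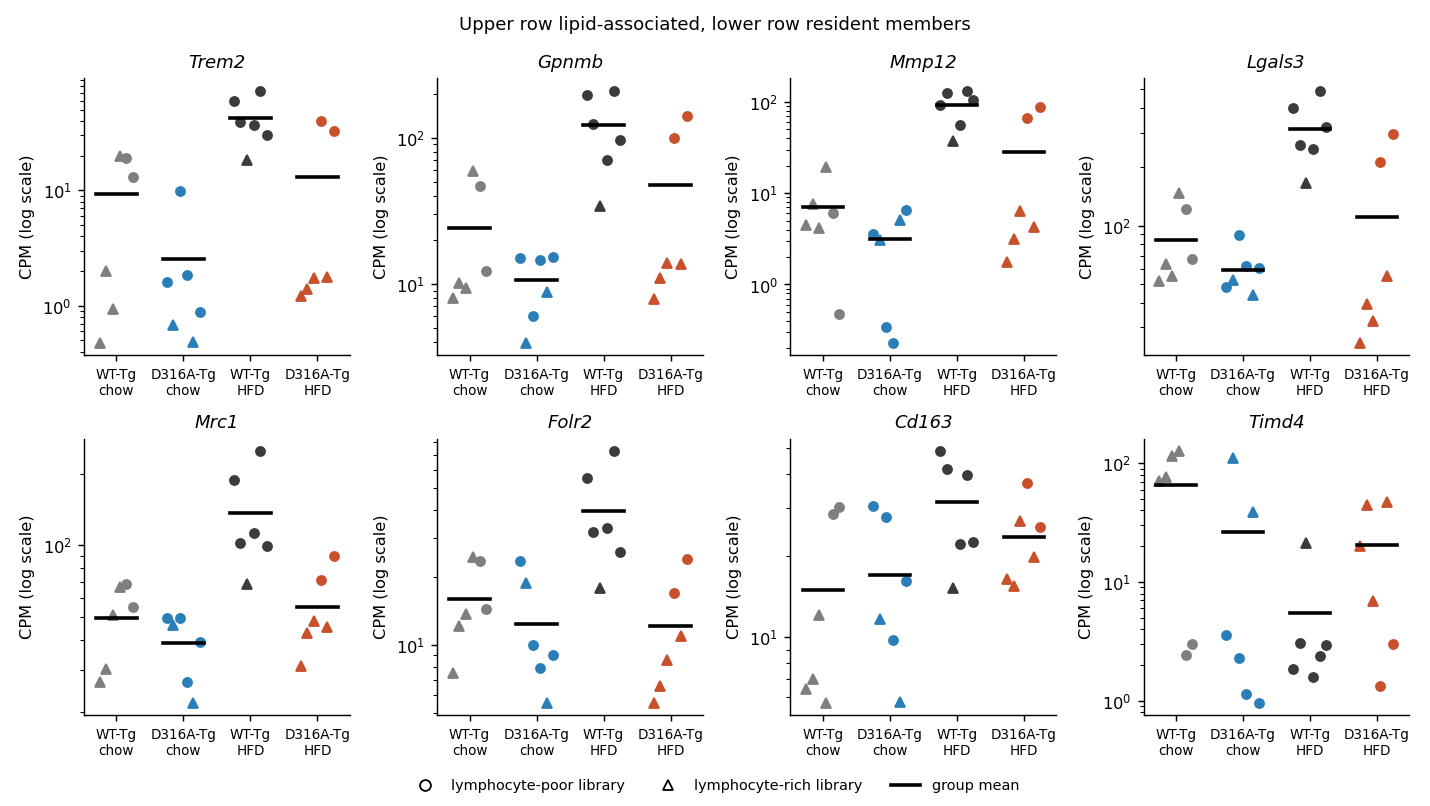
CPM on a log axis of 4 lipid-associated genes (upper row) and 4 resident genes (lower row) in each library of the 4 groups, with triangles for lymphocyte-rich libraries, circles for the others and bars at group means. On HFD the 4 D316A-Tg triangles lie below all WT-Tg points for Trem2, Gpnmb, Mmp12 and Lgals3, and the 2 D316A-Tg circles lie among the WT-Tg points.

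That division held across the list and matched the lymphocyte genes. For 8 of 8 lipid-associated genes the 4 lymphocyte-rich D316A-Tg libraries lay below all 5 lymphocyte-poor WT-Tg libraries, and for 8 of 8 below the 2 lymphocyte-poor D316A-Tg libraries. Those 2 lay within the WT-Tg range for 7 of 8 genes (Cd9 in library 10 was just below it), and the 1 lymphocyte-rich WT-Tg library was the lowest WT-Tg library for 8 of 8. The same counts over the 31 genes were 22, 22, 23 and 24, where 16.3%, 20.1%, 40.9% and 21.4% of all genes tested did so. On HFD, 17 of 31 genes were lower in every lymphocyte-rich than in every lymphocyte-poor library, where 5.5% of all genes were, and Timd4 was higher, where 7.13% were. Itgax, the integrin CD11c of macrophages and dendritic cells, was higher in lymphocyte-rich libraries on chow (18.5 to 41.6 against 2.15 to 5.28 CPM) and lower in them on HFD (5.46 to 17.7 against 21.5 to 75.3 CPM).

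The HFD calls were lost without these libraries. Without the 5 lymphocyte-rich HFD libraries, which left 5 WT-Tg and 2 D316A-Tg, edgeR called 0 of 31 genes and 0% of all genes (3 of the 31 and 1840 of all genes had an unadjusted p below 0.05). The median of the 31 was then -0.54, that of the resident list -0.57 and that of the lipid-associated list -0.40. Cd14 was still at -1.06 (SE 0.35, adjusted p = 0.303) and Trem2 had -0.39 (SE 0.33, adjusted p = 0.669). With the B lymphocyte score as a covariate 0 of 31 and 26 of all 14649 genes were called, and the median of the 31 was -0.56. An unadjusted p below 0.05 was found for 4 of the 31 and 2200 of all genes. With the skeletal muscle score, which was higher in D316A-Tg with little overlap, 0 of 31 and 0 of all genes were called. The median was -1.09, and 6 of the 31 and 959 of all genes had an unadjusted p below 0.05. Few or no genes of any kind were called in these fits, so the counts of 0 do not single out macrophage genes. The part of lymphocyte or muscle RNA in these results was not tested beyond this. Leaving out single libraries moved the count of 8 to 0 (WT-Tg 1 or 4, D316A-Tg 9 or 11), to 1 (WT-Tg 2, 5 or 6, D316A-Tg 7 or 8), to 6 (D316A-Tg 10, with Cd9 and Ctsk among them), to 14 (WT-Tg 3) or to 18 (D316A-Tg 12). The count over all genes moved as well in these fits, from 1241 in the main fit to between 326 and 3919.

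The diet comparison in WT-Tg asked how macrophage genes differed between 24-week-old mice on HFD and 16-week-old mice on chow. Lipid-associated genes rose: 7 of 8 passed the edgeR test, all higher, with a list median of 1.99 on the log2 scale. Of the 31 genes, 14 rose and 3 fell, where 28.7% of the 15018 genes tested rose and 33.3% fell, 62% in all. The median of the 31 was 0.81 against -0.06 over all genes tested. In 5 of 31 genes the groups did not overlap (Mrc1, Lgals3, Mmp12, Atp6v0d2 and Olr1), where 36% of all genes did not.

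Mmp12 rose from 7.03 ± 6.45 to 91.9 ± 38.1 CPM, a log2 fold change of 3.63 (SE 0.64, edgeR adjusted p = 0.000432). Atp6v0d2, a subunit of the proton pump of lysosomes and osteoclasts, had 0.538 to 8.06 CPM on chow and 9.24 to 67.4 CPM on HFD without overlap (log2 fold change 3.62, SE 0.81, adjusted p = 0.00213). Lgals3 rose by 1.83 (SE 0.33, adjusted p = 0.000485), Gpnmb by 2.26 (SE 0.62, adjusted p = 0.00762) and Ctsk, the collagen-degrading cathepsin K, by 1.62 (SE 0.32, adjusted p = 0.001). Trem2 rose by 2.16 (SE 0.79, adjusted p = 0.0311), and WT-Tg chow libraries 4 and 5, at 20 and 19.1 CPM, lay above the lowest HFD library, at 18.2. The call was lost without WT-Tg chow library 2 (1.95, adjusted p = 0.0586), HFD library 1 (2.05, adjusted p = 0.0561) or HFD library 5 (1.95, adjusted p = 0.0644). Cd9 rose by 0.81 (adjusted p = 0.0176), whereas Itgax had a fold change of 1.11 that did not pass (adjusted p = 0.0865), and passed without WT-Tg chow library 4 (1.48, adjusted p = 0.0323). Olr1 went from 0 to 0.299 CPM on chow to 1.17 to 14.5 CPM on HFD (log2 fold change 5.37, SE 0.74, adjusted p = 6.51e-05).

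The resident list was split in WT-Tg. Mrc1 stood at 49.7 ± 17.8 CPM on chow and 136 ± 67.2 CPM on HFD and rose (log2 fold change 1.40, SE 0.33, edgeR adjusted p = 0.00331), with its highest chow library at 68.6 and its lowest HFD library at 68.7 CPM. Folr2 rose by 1.24 (SE 0.37, adjusted p = 0.0111). Timd4 fell by 3.65 (SE 1.05, adjusted p = 0.00952), but without lymphocyte-rich libraries, which left 2 chow and 5 HFD libraries, its log2 fold change was -0.18 (SE 0.32, adjusted p = 0.668). Cd163 (1.04, adjusted p = 0.0707), Clec10a (0.52, adjusted p = 0.232) and Lyve1 (-0.24, adjusted p = 0.630) did not pass, although Cd163 passed without WT-Tg chow library 5 (1.33, adjusted p = 0.0276), chow library 6 (1.36, adjusted p = 0.0224) or HFD library 3 (1.17, adjusted p = 0.0466). The median of the list was 0.78.

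In the core list Adgre1 rose by 2.03 (SE 0.44, edgeR adjusted p = 0.00174), from 7.77 to 39.7 CPM on chow to 33.9 to 159 CPM on HFD, and Cd68, a lysosomal glycoprotein of macrophages, by 1.35 (SE 0.40, adjusted p = 0.0117). C1qb rose by 0.92 (SE 0.31, adjusted p = 0.0227), lost without WT-Tg HFD library 5 (adjusted p = 0.0533), and C1qc by 0.74 (SE 0.29, adjusted p = 0.0439). The C1qc call was lost without any one of WT-Tg chow libraries 1, 2, 3 and 6 or HFD libraries 1, 2 and 5, with adjusted p-values from 0.0524 to 0.0991. The other 9 core genes did not pass, among them Lyz2 (-0.44, adjusted p = 0.383) and Ctss (-0.12, adjusted p = 0.857), whose chow levels followed the lymphocyte genes. Marco, at 92.4 ± 82.9 CPM on chow and 8.27 ± 10.9 on HFD, fell by 3.56 (SE 1.16, adjusted p = 0.0181), but turned to 1.67 (SE 0.23, adjusted p = 0.000613) without lymphocyte-rich libraries and to 0.23 (adjusted p = 0.76) with the B lymphocyte score as a covariate. Cd5l, a secreted inhibitor of macrophage apoptosis, fell by 2.90 (SE 0.87, adjusted p = 0.0125). It had 553 counts in WT-Tg chow library 4, 10 to 113 in the other WT-Tg chow libraries and 8 to 34 on HFD. Leaving out 1 library gave -3.14 to -1.44, with adjusted p up to 0.0406. Without lymphocyte-rich libraries it fell by 1.02 (adjusted p = 0.134). Without them 20 of the 31 genes were called, where 51.3% of all genes were.

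In D316A-Tg the same comparison called 3 of the 29 genes tested, 2 higher and 1 lower, where 14.1% of the 14752 genes tested were higher and 16.7% lower, 30.8% in all. Atp6v0d2 rose by 3.77 (SE 1.14, edgeR adjusted p = 0.0257) and Gpnmb by 2.16 (SE 0.76, adjusted p = 0.0493), while Cd14 fell by 1.21 (SE 0.29, adjusted p = 0.00741). The Gpnmb call was lost without any one of the 6 chow libraries or HFD library 10 or 12 (log2 fold changes down to 1.46, adjusted p up to 0.143). The Atp6v0d2 call was lost without chow library 9 or 10 or HFD library 10 or 12 (down to 2.90, adjusted p up to 0.064). Mmp12 stood 3.14 higher on the log2 scale (SE 1.12, adjusted p = 0.0512) and Trem2 2.35 (SE 1.12, adjusted p = 0.134), each with HFD libraries 10 and 12 far above the other 4. The lipid-associated median was 1.51 and the resident median 0.26. Leaving out 1 library gave lipid-associated medians of 0.97 (HFD library 12) to 1.75 and resident medians of 0.08 (HFD library 12) to 0.44 (chow library 8), and leaving out the lymphocyte-rich libraries gave 3.26 and 0.60. Without the 2 chow and 4 HFD lymphocyte-rich libraries, 20 of 29 were called, 19 of them higher, where the same fit called 47.3% of all genes. Trem2 was then 3.30 (SE 0.81, adjusted p = 0.0169) and Lgals3 1.93 (SE 0.24, adjusted p = 0.000693), on 4 chow and 2 HFD libraries. Leaving out single libraries gave 6 calls (chow 8), 5 (HFD 7, 8 or 11) or 1 (chow 10, HFD 10 or 12). Over all genes, the fits that left out 1 library called 3598 to 5129, against 4546 in the main fit. The 2 diet comparisons share no library with each other, but each shares its libraries with the genotype comparisons.

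**Figure D4:**
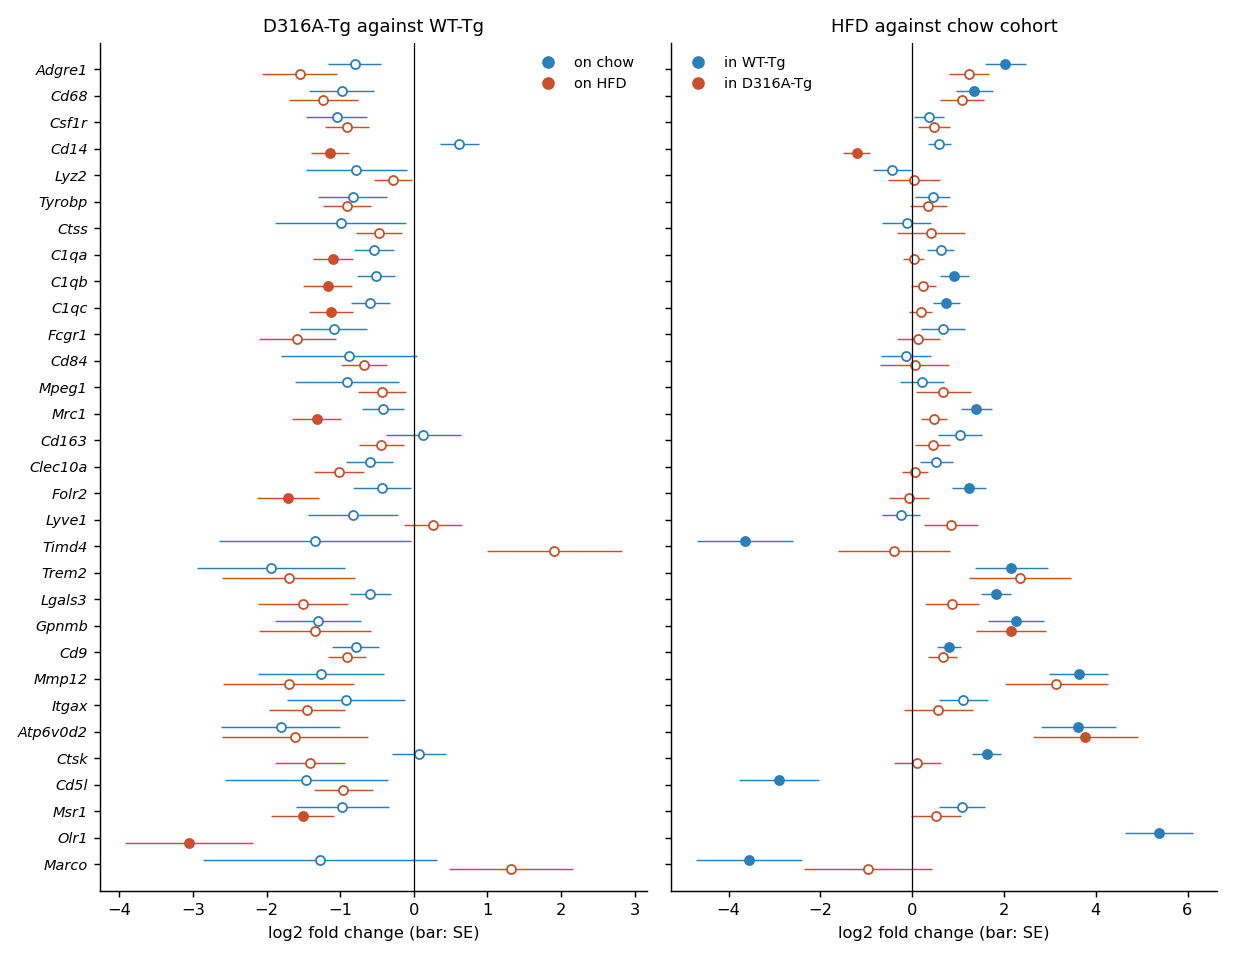
Log2 fold changes of the 31 genes with their SE as bars, D316A-Tg against WT-Tg on the left (blue chow, orange HFD) and HFD against chow on the right (blue WT-Tg, orange D316A-Tg), filled where the edgeR adjusted p is below 0.05. On the left 8 HFD points are filled and 0 chow points, and on the right the lipid-associated genes from Trem2 to Ctsk are filled in WT-Tg except Itgax.

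The test of the difference of the D316A-Tg effect between the diets called 1 of 31 genes, where 12.9% of the 16072 genes tested were called, 6.08% with a higher and 6.86% with a lower effect on HFD. Cd14 changed by 0.62 on chow and by -1.14 on HFD, a difference of -1.75 (SE 0.38, edgeR adjusted p = 0.00677). Its difference was -1.79 (SE 0.52, adjusted p = 0.0527) without lymphocyte-rich libraries, where 9.39% of all genes were called, and -1.02 (SE 0.35, adjusted p = 0.081) with the B lymphocyte score as a covariate. Leaving out WT-Tg chow library 5 added a call for Ctsk (-1.82, adjusted p = 0.0454), and leaving out D316A-Tg chow library 8 one for Timd4 (4.82, adjusted p = 0.0363). No other difference between diets was called for the resident list (0 of 6, lowest adjusted p = 0.144, 1 with an unadjusted p below 0.05, 0 by DESeq2) or for the lipid-associated list (0 of 8, lowest adjusted p = 0.109, 1 with an unadjusted p below 0.05, 0 by DESeq2).

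To set both lists against each other, the mean log2 CPM of the 6 resident genes was subtracted from that of the 8 lipid-associated genes in each library. The difference, called the balance here, describes libraries and was not tested, since the genes had been chosen with earlier results known. On chow its mean was -0.79 ± 0.77 (SD, n = 6) in WT-Tg and -0.92 ± 0.75 in D316A-Tg, with ranges of -1.82 to 0.28 and -2.12 to -0.03. Resident genes thus had the higher mean log2 level in 11 of 12 chow libraries, and the groups overlapped. Summed CPM did not give that order throughout. Its medians were 178 for the resident and 167 for the lipid-associated genes in WT-Tg on chow, and 108 and 146 in D316A-Tg. On HFD the balance was 1.51 ± 0.46 in WT-Tg and -0.29 ± 1.65 in D316A-Tg.

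The D316A-Tg mean on HFD stood for no single library. Libraries 7, 8, 9 and 11 were at -1.48, -1.63, -0.94 and -1.34, within the chow range, and libraries 10 and 12 at 1.79 and 1.85. WT-Tg libraries were at 1.5 to 1.89 except library 3, the lymphocyte-rich one, at 0.61. The D316A-Tg minus WT-Tg difference on HFD was -1.80 over all libraries and 0.13 without the lymphocyte-rich ones. In WT-Tg the balance was 2.29 higher on HFD than on chow, and 2.04 higher without the lymphocyte-rich libraries. In D316A-Tg it was 0.63 higher over all libraries and 2.52 higher without them. In WT-Tg the resident mean was 4.48 ± 0.44 on chow and 4.70 ± 0.42 on HFD, and the lipid-associated mean was 3.69 ± 0.89 and 6.21 ± 0.69. The resident mean pools members of opposite sign, since Mrc1 and Folr2 rose with HFD in WT-Tg while Timd4 fell.

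**Figure D5:**
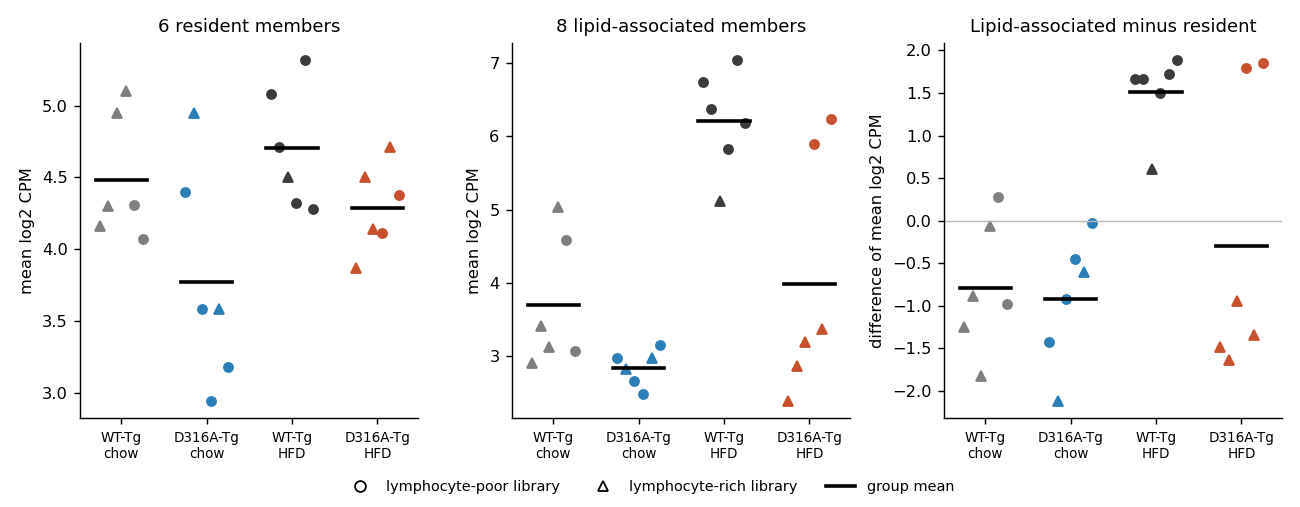
Mean log2 CPM of the resident genes, of the lipid-associated genes and their difference in each library of the 4 groups (triangles lymphocyte-rich libraries, circles the others, bars group means). The resident group means lie between 3.77 and 4.70, while the lipid-associated mean reaches 6.21 in WT-Tg on HFD and D316A-Tg on HFD divides into 2 circles above and 4 triangles below.

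Other genes of the macrophage pathway were read from lists named for this purpose. Csf1, the ligand of Csf1r, was lower in D316A-Tg (28.4 CPM) than in WT-Tg (47.3 CPM) on chow, without overlap (log2 fold change -0.81, SE 0.14, edgeR adjusted p = 0.0134). It was the 1 of 6 tested growth factor and chemokine genes called there, where 3.25% of all genes were lower. On HFD 0 of 7 were called between genotypes (lowest adjusted p = 0.156). In WT-Tg, the monocyte attractants Ccl2 (2.52, SE 0.34) and Ccl7 (1.98, SE 0.37) rose with HFD and Cx3cl1 (-0.84, SE 0.16), fractalkine, fell. They were 42.9% of the 7 genes of that list tested, below the 62% of all genes called there. The transcription factor list held Id3, an inhibitor of basic helix-loop-helix factors that is also used in Kupffer cells. Id3 fell in D316A-Tg on chow (-0.82, SE 0.09, edgeR adjusted p = 0.0031) and on HFD (-1.11, SE 0.14, adjusted p = 0.00716), without overlap on either diet. Of all genes 3.25% were lower on chow and 3.96% on HFD. The 7 blood endothelium genes had median log2 fold changes of -0.79 and -0.75. Which cells gave the Id3 RNA was not tested. Mitf, a driver of lysosomal genes, rose with HFD in WT-Tg (1.03, SE 0.15), where 28.7% of all genes rose.

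Among 16 further genes of resident macrophages, 2 fell in D316A-Tg on HFD, where 3.96% of all genes did: the platelet factor Pf4 (-1.40, SE 0.29, edgeR adjusted p = 0.0222) and the complement receptor Vsig4 (-1.87, SE 0.51, adjusted p = 0.0444). On chow 0 of 15 tested were called (lowest adjusted p = 0.0749). In WT-Tg 6 of 16 rose with HFD, among them Vsig4 and Pf4, where 28.7% of all genes rose. Among 22 further genes linked to lipid-associated macrophages, many of which adipocytes also express, 13 rose and 3 fell with HFD in WT-Tg, where 28.7% of all genes rose and 33.3% fell. The risen genes included the lysosomal lipase Lipa (1.32, SE 0.20) and Dcstamp, a gene of cell fusion (3.64, SE 0.56). In D316A-Tg 2 rose and 1 fell of 21 tested, where 30.8% of all genes were called. Between genotypes, 3 of 21 rose on chow (Abca1, Syngr1 and Fabp5), where 5.3% of all genes did, and on HFD Apoe rose (0.73, SE 0.14, adjusted p = 0.0195) and Plin2, a lipid droplet coat protein, fell (-0.94, SE 0.22, adjusted p = 0.0289). The difference of the D316A-Tg effect between diets was called for 5 of 22, where 12.9% of all genes were called, all with a more negative effect on HFD: Lpl, Fabp5, Plin2, Ctsd and Abca1.

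Markers of neighbouring myeloid cells moved in other ways. Of 8 monocyte genes, 0 were called between genotypes on chow and 0 of 7 on HFD (lowest adjusted p = 0.263 and 0.138), where 8.54% and 8.47% of all genes were. In WT-Tg, Plac8, Ly6c2 and Cx3cr1 fell with HFD while Fn1, which fibroblasts also make, rose. These calls were 50% of the list, below the 62% of all genes called there. All 8 dendritic cell genes fell with HFD in WT-Tg (33.3% of all genes did), where 4 of 6 chow libraries and 1 of 6 HFD libraries were lymphocyte-rich. Between genotypes, 1 of 8 was lower in D316A-Tg on each diet, where 3.25% (chow) and 3.96% (HFD) of all genes were. On HFD 7 of the 8 fold changes were above 0. Of 9 neutrophil and mast cell genes, the neutrophil gene Ly6g alone was at 0 in every library of a group, in 3 of the 4 groups. The summed level of these 9 was 26.3 to 93.4 CPM in WT-Tg chow and 36.9 to 67.5 CPM in WT-Tg HFD libraries. With HFD, 1 of 6 tested rose and 1 fell in WT-Tg, where 62% of all genes were called. In D316A-Tg 1 of 6 rose and 0 fell, where 30.8% of all genes were called. The summed level of 8 dendritic cell genes was 81.8 to 469 CPM in WT-Tg chow and 80.7 to 168 CPM in WT-Tg HFD libraries. Their part in the values of Itgax, which dendritic cells share, was not tested.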

How the data were processed

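Messenger RNA of whole inguinal fat was sequenced in 24 libraries from stranded, poly(A)-selected preparations, per the labels' protocols. The authors deposited raw counts per gene, as whole numbers without normalization, in 1 table per diet. Per the submitters' processing notes, bcl2fastq, FastQC, STAR 2.4.1, DESeq2 and mm10 were used, and per the labels the base-calling versions were bcl2fastq 2.20.0.422 (chow) and bclfastq 2.16.0.10 (HFD). How reads were counted (tool, annotation, strand) is not stated in the sources used here.

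Totals ran from 13254536 to 22748132 counts per library, and no pair of libraries in a group agreed within sampling noise (lowest chi-square per degree of freedom 14.4). Genotypes were compared within each table, and diets and the interaction on the 38013 shared identifiers, with edgeR 4.0.16 in R 4.3.3 (filterByExpr, TMM, robust quasi-likelihood F test; p adjusted by Benjamini-Hochberg across every gene of a fit, threshold 0.05). The standard error is the log2 fold change divided by the square root of F. Displayed CPM use TMM factors over 24 libraries, and log2 CPM a prior count of 2. DESeq2 1.42.0, other filters, covariates and left-out libraries were tried as alternatives, and the edgeR procedure was tested on simulated counts. Names and coordinates came from GENCODE (GRCm38), which held 96.6% of chow and 95.4% of HFD identifiers.

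The members and lists were chosen with earlier results of these data known. All 31 members are accounted for. From each of 14 other lists (150 genes) up to 4 called genes of lowest adjusted p per comparison were named, and others only where 5 or fewer were called. A result for 1 transcription factor list is given in part, and the rest is not reported here.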

Additional observations from a re-analysis of the deposited data

Results flagged for a closer look

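The 124 sets of 6 libraries (each member in each group) were examined on the log2 CPM scale. In 4 of them 1 library stood apart from the others by more than 0.625 of the group's range. Chance at 1 in 20 would give 6.2. Timd4 was at 21.1 CPM in WT-Tg HFD library 3 and at 1.59 to 3.09 CPM in the other 5, and Marco was at 30.5 CPM in the same library and at 3.42 to 4.22 CPM in the others. That library was the lymphocyte-rich WT-Tg library on HFD. Cd84, a receptor of the SLAM family, was at 9.97 CPM in D316A-Tg HFD library 9 and at 20.7 to 29.1 CPM in the others. Olr1 was at 3.29 CPM in D316A-Tg HFD library 12 and at 0.11 to 0.446 CPM in the others.

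The effect of D316A-Tg on Cd14 differed between the diets by a log2 value of -1.75 (edgeR adjusted p = 0.00677). Leaving out each of the 24 libraries in turn gave -1.92 to -1.55, with adjusted p-values from 0.00302 to 0.0138. The part of diet, age and sequencing run in this difference cannot be told apart.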

How the results depend on the processing

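The count of macrophage genes called between genotypes on chow was 0, and 1 (Csf1r) without lymphocyte-rich libraries and 1 with all 24 libraries in one fit; leaving out 1 library gave 0 to 3. On HFD the count of 8 became 18 with DESeq2, 2 with every gene of at least 1 count, and 0 with the B lymphocyte score, 0 with the skeletal muscle score and 0 without lymphocyte-rich libraries, with 0 to 18 when 1 library was left out. In WT-Tg the diet count of 17 became 9 with the B lymphocyte score, and 14 to 21 without 1 library. In D316A-Tg the count of 3 became 6 with DESeq2, 8 with the B lymphocyte score and 0 with the skeletal muscle score. It was 20 without lymphocyte-rich libraries, and 1 to 6 without 1 library. Counts over all genes are not given here for the WT-Tg fit with the B lymphocyte score or the D316A-Tg fit with DESeq2. The changes to 9 and to 6 are therefore not read as particular to macrophage genes. The interaction count of 1 became 0 with the B lymphocyte score and 0 without lymphocyte-rich libraries, and 1 to 2 without 1 library.

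Over all genes, the chow count of 1303 became 2977 with DESeq2, 524 with every gene of at least 1 count, 3778 with the B lymphocyte score, 326 with the skeletal muscle score, 2305 without lymphocyte-rich libraries and 3615 in one fit, and 140 to 3360 without 1 library. The HFD count of 1241 became 2802, 795, 26, 0 and 0 under the first 5 of these, and 326 to 3919 without 1 library. The D316A-Tg diet count of 4546 became 6976 with the B lymphocyte score, 1969 with the skeletal muscle score and 7112 without lymphocyte-rich libraries. Without 1 library it was 3598 to 5129, and the WT-Tg diet count of 9304 was 8613 to 10263. The interaction count of 2080 became 1293 and 383 with the same scores, and 1368 to 4304 without 1 library.

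The balance of lipid-associated over resident genes on chow, D316A-Tg minus WT-Tg, was -0.14 and ranged from -0.34 to 0.11 without 1 library, turning to 0.01, 0.08 and 0.11 without WT-Tg library 4, WT-Tg library 5 and D316A-Tg library 8. On HFD it was -1.80 (-2.23 to -1.53) and turned to 0.13 without lymphocyte-rich libraries. In WT-Tg the HFD minus chow balance of 2.29 (2.09 to 2.51) was 1.60 with medians over genes and, in a choice made after seeing the data, 1.54 without Timd4, Lyve1 and Itgax. In D316A-Tg it was 0.63 (0.20 to 0.90), and 2.52 without lymphocyte-rich libraries. Without those libraries, Lyz2 (1.20), Ctss (2.24), Cd84 (2.52) and Marco (1.67) turned to higher in WT-Tg on HFD, and Marco (2.83) in D316A-Tg; with the B lymphocyte score Marco was 0.23 in WT-Tg. The cause of these moves was not tested.

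No paired analysis was possible between genotypes because they share no replicate numbers. Between diets the numbers are shared, but only 2 of 6 libraries in each genotype correlated best with their own number (r from -0.51 to 0.63 in WT-Tg and from -0.35 to 0.67 in D316A-Tg). Libraries 3, 8 and 11, which were lymphocyte-rich on both diets, had r of 0.63, 0.64 and 0.67. The check therefore cannot decide whether a number links libraries, and the main fits assumed no pairing. With the replicate number as a block the counts of macrophage genes called were 13 in WT-Tg and 1 in D316A-Tg. Counts over all genes in these blocked fits are not given here, so the change is not read as particular to macrophage genes. Olr1, at 0 to 0.299 CPM on chow in WT-Tg, was too low there for the test between genotypes.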

Other observations

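Genes of other cells of the fat also differed between the genotypes on HFD. All 12 skeletal muscle genes rose in D316A-Tg, where 4.51% of all genes rose and 3.96% fell, with a summed level of 229 to 25500 CPM against 18.4 to 234 CPM in WT-Tg. In the blood endothelium list 3 of 7 genes fell and 0 rose, and its summed level was 314 to 627 CPM against 568 to 720 CPM. In the progenitor and fibroblast list 4 of 11 fell and 0 rose, with 1350 to 4270 CPM against 3200 to 7480 CPM. Its mean log2 CPM was 5.88 to 6.67 in lymphocyte-rich D316A-Tg libraries and 7 and 6.89 in D316A-Tg libraries 10 and 12. In WT-Tg it was 6.73 to 7.69. Without lymphocyte-rich libraries, 0 of 15131 genes of any kind were called between genotypes on HFD. Of the 10 adipocyte genes, 2 rose and 0 fell on HFD, with a summed level of 32200 to 45200 CPM in D316A-Tg against 31800 to 43700 CPM in WT-Tg. On chow the summed level of the 10 adipocyte genes had medians of 23900 CPM (WT-Tg) and 65500 CPM (D316A-Tg), and 0 of 10 passed the edgeR test (2 with an unadjusted p below 0.05). The summed level of the 10 T lymphocyte genes had medians of 936 and 16.7 CPM on chow and of 13.9 and 237 CPM on HFD, in WT-Tg and D316A-Tg, and 0 of 10 passed the edgeR test on either diet (lowest adjusted p = 0.539 and 0.153; 0 and 1 with an unadjusted p below 0.05).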
